A study of Homo sapiens with 10 samples.

Results

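The genes described here encode the stress sensors of the endoplasmic reticulum (ER) and the transcription factors that are held in its membrane or made from a sensor's product. They are the sensors ERN1 (IRE1α), EIF2AK3 (PERK), ATF6 and ATF6B, the IRE1α product XBP1, the Golgi proteases MBTPS1 (S1P) and MBTPS2 (S2P), and the ER-bound factors CREB3, CREB3L2 and CREB3L3. They were picked by name from what is known of the pathway, with no threshold on measured values, although earlier results of these data were known. All 10 were found among the 32738 genes of the count table, and all 10 remained among the 12733 tested after genes of low count had been removed. The libraries were made from HepG2, an established human hepatoma line, with 5 control libraries from cells in regular growth medium and 5 from cells exposed to 2 µg/ml tunicamycin for 17 h, an inhibitor of N-linked glycosylation that provokes ER stress. The cells carried no engineered allele, both conditions used the same line, and the labels name no vehicle for the control. The 5 replicates were experiments done on separate days, so that a control and a tunicamycin library share each replicate number.

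In the unfolded protein response (UPR), IRE1α, PERK and ATF6 span the ER membrane and are held in check by the chaperone BiP, the product of HSPA5. When misfolded proteins accumulate, IRE1α excises a short intron from XBP1 mRNA and cleaves other mRNAs, PERK phosphorylates eIF2α, and ATF6 moves to the Golgi, where S1P and then S2P cut it and release its cytosolic part as a transcription factor. ATF6B and the CREB3 family are processed along the same route. CREB3L3, also called CREBH, is found mostly in liver and intestine, where it drives genes of lipid transport and the acute phase.

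The libraries held 4242538 to 4888292 counts in control cells and 2234682 to 5029864 counts with tunicamycin, with the lowest totals in tunicamycin replicates 5 and 4. Transcripts of the mitochondrial genome made up 22.7% to 25.2% of a control library and 18.3% to 28.8% of a tunicamycin library. All 8 hepatoma markers were detected. Of the markers of other cell types, PTPRC was listed at 0 in every library and VWF, COL1A1, COL3A1 and MYH11 had at most 5 counts per condition, while CD68, a lysosomal protein, was detected and fell by 0.83 on the log2 scale (adjusted p = 0.0319). Summed, these markers stood at 4.21 to 8.08 CPM in control libraries and 2.31 to 5.98 CPM with tunicamycin. Levels are given as CPM, the counts divided by the TMM-scaled library size and multiplied by 1000000. By this 3′ method a transcript gives about 1 fragment whatever its length, so CPM were not divided by length.

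By edgeR's quasi-likelihood test, 34.2% of all genes tested had a Benjamini-Hochberg adjusted p under 0.05, and 17.6% were called higher and 16.6% lower. Of the 10 genes described here, 5 were higher with tunicamycin, namely ERN1, EIF2AK3, ATF6, MBTPS2 and CREB3. Another 3 were lower, namely ATF6B, XBP1 and CREB3L3, and MBTPS1 and CREB3L2 did not pass. With library sizes not scaled by TMM, 1774 genes were called higher and 2570 lower, against 2237 and 2116 with it, and EIF2AK3 and MBTPS2 were then no longer called. The ranges of the 5 control and 5 tunicamycin libraries did not overlap for 5 of the 10 genes, namely ERN1, ATF6, XBP1, CREB3 and CREB3L3, and the same held for 23.5% of all genes tested. The plot of levels by library shows the values described below.

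**Figure D1:**
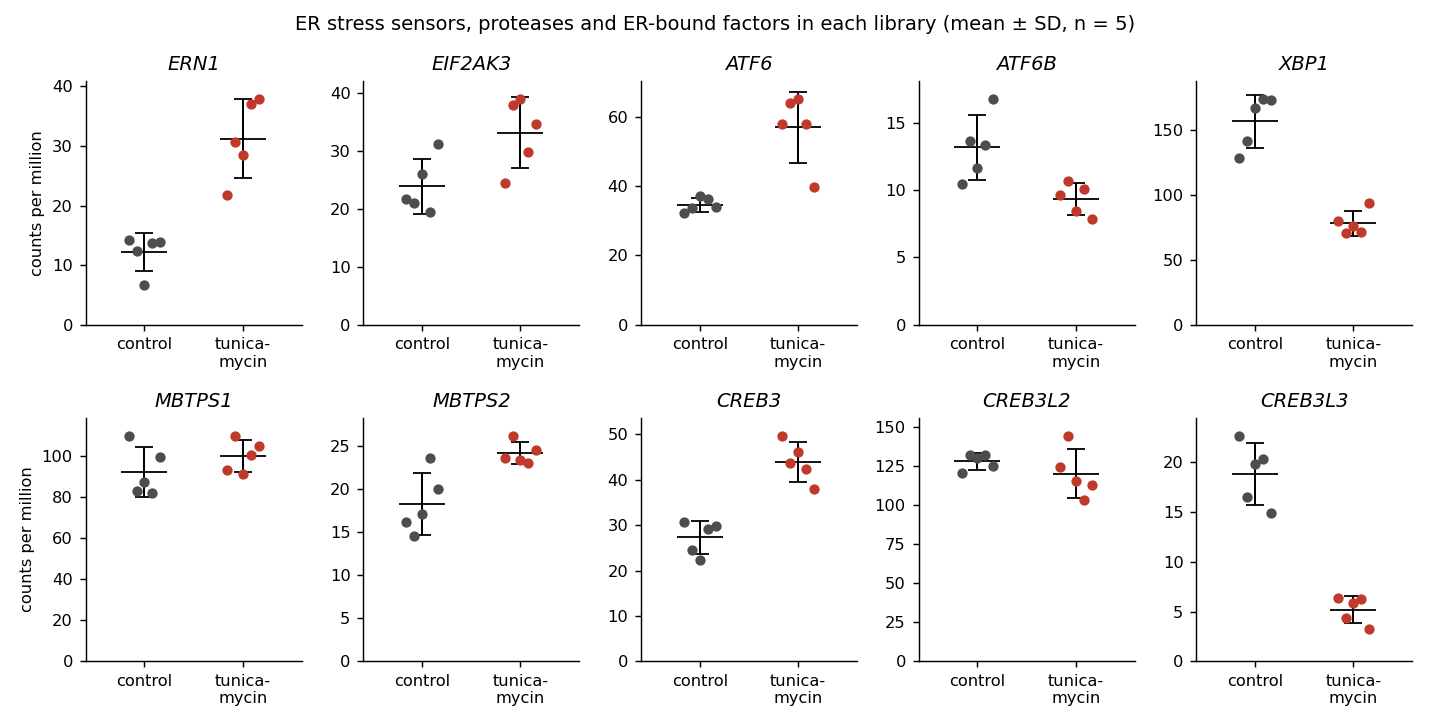
Level of each of the 10 genes in every library, in CPM (y axes, each from 0), for 5 control and 5 tunicamycin libraries, with points for libraries and bars for the mean and SD. The groups lie apart for ERN1, ATF6, XBP1, CREB3 and CREB3L3, and overlap for the other genes.

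ERN1 (chr17:64039080-64130819, minus strand, on GRCh38 as all positions here) encodes IRE1α, the sensor with both a kinase and an RNase domain. Its level in control replicates 1 to 5 was 14.2, 12.5, 6.61, 13.7 and 13.96 CPM, and with tunicamycin it was 21.9, 30.7, 28.6, 37.1 and 37.9 CPM. Every tunicamycin library was above every control library, and control replicate 3 lay below the other controls. The mean rose from 12.2 ± 3.19 to 31.2 ± 6.60 CPM (SD, n = 5), a fold change of 2.52 or 1.34 on the log2 scale (SE 0.19, adjusted p = 2.59e-05, edgeR's quasi-likelihood test). The log2 ratios within replicates ranged from 0.62 to 2.09. Of all genes tested, 96.9% had a lower log2 fold change.

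EIF2AK3 (chr2:88556741-88691518, minus strand) encodes PERK, the kinase that slows translation under ER stress. Its control values were 21.7, 21.0, 26.04, 19.5 and 31.2 CPM, and its tunicamycin values were 24.4, 37.9, 38.9, 29.9 and 34.7 CPM. The groups overlapped, since control replicates 3 and 5 exceeded tunicamycin replicate 1, but the tunicamycin library was the higher of the pair in 5 of 5 replicates. EIF2AK3 rose by 0.47 on the log2 scale (SE 0.15, adjusted p = 0.0229), from 23.9 ± 4.75 to 33.2 ± 6.05 CPM. The call was lost when control replicate 2 (adjusted p = 0.0623), control replicate 4 (0.0553), tunicamycin replicate 2 (0.0619) or tunicamycin replicate 3 (0.0756) was left out.

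ATF6 (chr1:161766298-161977574, plus strand) and ATF6B (chr6:32115264-32128253, minus strand) are both cleaved in the Golgi to give basic leucine zipper factors, and ATF6 rose while ATF6B was lower by a call that depended on the fit. ATF6 was measured at 32.1, 33.7, 37.1, 36.3 and 34.0 CPM in control replicates 1 to 5 and at 58.0, 64.1, 65.1, 57.9 and 39.7 CPM with tunicamycin. The groups did not overlap, although tunicamycin replicate 5, the library of lowest depth, came close to the controls. The mean of ATF6 rose from 34.6 ± 2.02 to 56.96 ± 10.2 CPM, a fold change of 1.66 or 0.73 on the log2 scale (SE 0.12, adjusted p = 0.000114). ATF6B was lower in level, at 10.4, 13.7, 11.6, 13.3 and 16.8 CPM in control libraries and 9.67, 10.7, 8.44, 10.1 and 7.85 CPM with tunicamycin. Its groups overlapped by a narrow margin, and the tunicamycin library was the lower of the pair in 5 of 5 replicates. The log2 fold change of ATF6B was -0.48 (SE 0.17, adjusted p = 0.0377), and with the replicate number as a block it was -0.45 with an adjusted p of 0.05003, so that the call did not hold. It was also lost without control replicate 2 (adjusted p = 0.0739), 4 (0.0681) or 5 (0.113) and without tunicamycin replicate 1 (0.0550), 3 (0.0900) or 5 (0.0760). ATF6B shares exon sequence near its 3′ end with TNXB on the same strand, so that its few counts, 315 over the control libraries and 185 over the tunicamycin libraries, could have been split or dropped by the counting.

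XBP1 (chr22:28794555-28800597, minus strand) encodes the factor that is translated in full only after IRE1α has removed an intron from its mRNA. Its values were 128.9, 142, 167, 174 and 173 CPM in control replicates 1 to 5 and 79.9, 70.4, 76.4, 71.4 and 94.2 CPM with tunicamycin. No tunicamycin library reached the level of a control library. The mean fell from 157 ± 20.5 to 78.5 ± 9.62 CPM, a log2 fold change of -1.01 (SE 0.11, adjusted p = 6.91e-07), and the log2 ratios within replicates lay between -1.28 and -0.69. Of all genes tested, 5% had a lower log2 fold change. XBP1 was the only one of the 12 tested genes on a list of ATF6 targets that was called lower.

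The intron that IRE1α removes lies on chromosome 22 of GRCh38, on the minus strand, from 28796127 to 28796152. It has 26 bases, inside exon 4 of 5 of the longest transcript that keeps it, and its last base is 1258 bases from that transcript's 3′ end. Since 26 is not a multiple of 3, its removal shifts the reading frame. The counts came from the 3′ ends of transcripts and were summed per gene, so the spliced and unspliced mRNAs cannot be told apart in these values. The intron is shown, 5′ to 3′, because its removal is the event that the counts do not resolve. It is placed at the CNG|CNG sites that IRE1α cuts, with the cut after the first G, and the annotation places the same gap from 28796128 to 28796153, a shift of 1 base that gives the same spliced mRNA.
XBP1 intron: cagcactcagactacgtgcacctctg

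The region before the XBP1 start site is shown with that of HSPA5 because both hold the ER stress response element (ERSE), the site of NF-Y and ATF6, written as CCAAT and CCACG separated by 9 bases. The stretches come from RefSeq on GRCh38.p14 and are printed 5′ to 3′ on the gene's strand, with CCAAT and CCACG on either strand in capitals. That of XBP1 is chr22:28800570-28800719, that of HSPA5 chr9:125241344-125241493, that of ERN1 chr17:64130145-64130294 (these 3 on the minus strand) and that of CREB3L3 chr19:4153481-4153630 (plus strand). ERN1 and CREB3L3 had the largest rise and fall of the 10 genes and are shown for comparison.
XBP1 promoter: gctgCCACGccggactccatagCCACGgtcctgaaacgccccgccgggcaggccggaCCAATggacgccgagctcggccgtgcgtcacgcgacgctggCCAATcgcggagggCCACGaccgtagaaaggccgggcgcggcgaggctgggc
HSPA5 promoter: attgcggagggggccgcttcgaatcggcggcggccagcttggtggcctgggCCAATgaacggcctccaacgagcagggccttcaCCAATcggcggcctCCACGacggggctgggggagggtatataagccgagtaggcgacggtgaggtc
ERN1 promoter: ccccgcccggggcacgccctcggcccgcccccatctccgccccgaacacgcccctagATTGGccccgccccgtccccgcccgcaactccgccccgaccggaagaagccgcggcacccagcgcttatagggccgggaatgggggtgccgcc
CREB3L3 promoter: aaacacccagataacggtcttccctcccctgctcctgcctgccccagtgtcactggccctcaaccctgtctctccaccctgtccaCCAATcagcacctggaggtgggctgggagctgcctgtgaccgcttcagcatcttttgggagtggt

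Both strands of the 250 bases before each start site were searched in 35116 RefSeq promoters, among them 12 start sites of the 10 genes. The ERSE was found in 26 promoters, or 0.074%, and among the 10 genes in XBP1 alone, from -52 to -34 at its first listed start site. At XBP1 start site 2 only CCACG was found. The core of the UPR element, TGACGTGG, was found in 0.612% of promoters, the C/EBP-ATF element TGATGNAAN in 3.13% and the AP-1 site TGACTCA in 4.2%, and none of these was found in the 10 genes. The cAMP response element TGACGTCA, present in 1.65% of promoters, was found in CREB3L2, from -179 to -172. CCAAT alone was found in 6 of the 10 genes, against 11240 of the 35116 promoters, and CCACG alone in 4, against 11767. These matches describe letters in a window, and the binding of a factor to them was not measured. The only gene of the 10 with an ERSE in this window fell, whereas HSPA5, which also holds it, rose from 1934 to 15158 CPM. Both genes were chosen by name, and the genes of the other promoters with an ERSE were not examined.

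**Figure D2:**
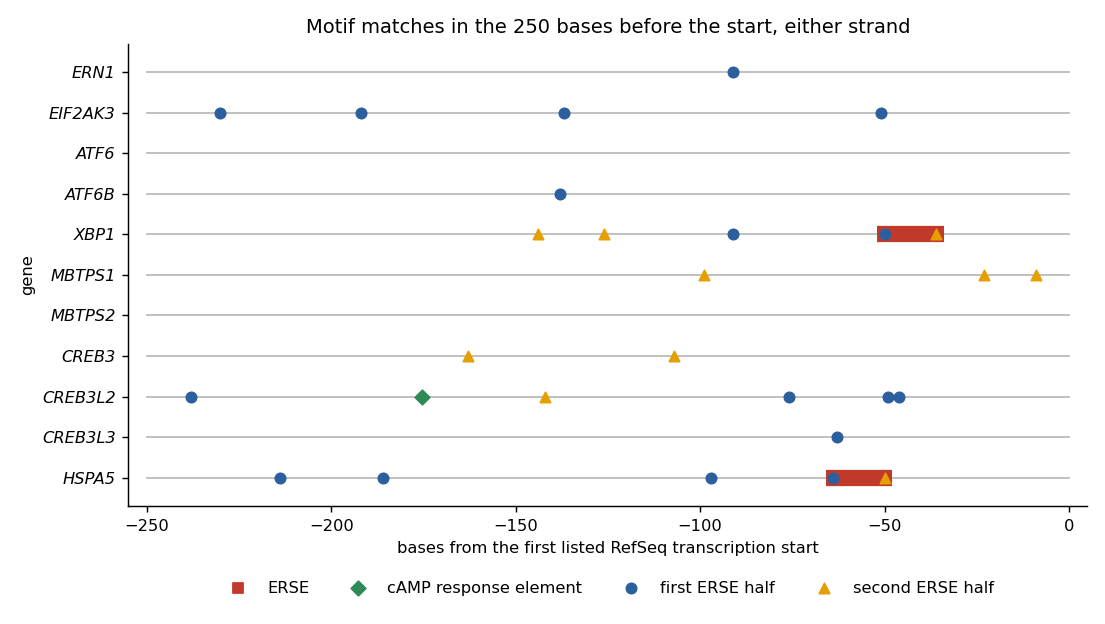
Positions of motif matches in the 250 bases before the start site (x axis, bases relative to the start site) for the 10 genes and HSPA5, one row per gene at its first listed start site. Red bars mark the ERSE, blue circles CCAAT, orange triangles CCACG and the green diamond the cAMP response element. XBP1 and HSPA5 are the rows with an ERSE.

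MBTPS1 (chr16:84053761-84116942, minus strand) and MBTPS2 (chrX:21839617-21885423, plus strand) encode the proteases that cut ATF6, the CREB3 family and the SREBPs in succession, S1P in the lumen and S2P within the membrane. MBTPS1 was measured at 109.6, 82.7, 86.9, 81.9 and 99.4 CPM in control libraries and at 92.8, 109.5, 90.8, 100.3 and 104 CPM with tunicamycin. The groups overlapped over most of their range, and the log2 fold change was 0.11 (SE 0.10, adjusted p = 0.416). MBTPS2 was several-fold lower in level, at 16.2, 14.5, 17.0, 23.6 and 20.02 CPM in control libraries and 23.6, 26.1, 23.4, 23.0 and 24.5 CPM with tunicamycin. Only control replicate 4 reached the tunicamycin range. MBTPS2 rose by 0.40 on the log2 scale (SE 0.14, adjusted p = 0.0342), from 18.3 ± 3.59 to 24.1 ± 1.26 CPM. Its call was lost without control replicate 1 (adjusted p = 0.0677), 2 (0.0980) or 3 (0.0684), without tunicamycin replicate 2 (0.0739), 3 (0.0543) or 5 (0.0570), and with DESeq2 and the replicate block (0.0685).

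CREB3 (chr9:35732598-35736999, plus strand), also known as Luman, is an ER-bound factor of the secretory pathway. It was measured at 30.7, 24.5, 22.4, 29.1 and 29.8 CPM in control replicates 1 to 5 and at 49.7, 43.6, 46.1, 42.5 and 37.9 CPM with tunicamycin. All tunicamycin values lay above all control values. The mean of CREB3 rose from 27.3 ± 3.64 to 43.9 ± 4.38 CPM, a fold change of 1.62 or 0.70 on the log2 scale (SE 0.12, adjusted p = 0.00016). CREB3 overlaps near its 3′ end with GBA2, which lies on the opposite strand and whose log2 fold change was -0.24 (adjusted p = 0.123), and the strand setting of the counting is not named in the sources used here.

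CREB3L2 (chr7:137874979-138002086, minus strand), a factor known from secretory cells and cartilage, was measured at 120.2, 132, 130.01, 132 and 125 CPM in control libraries and at 125, 144, 115, 103 and 113 CPM with tunicamycin. The tunicamycin libraries spread on both sides of the control range. The log2 fold change was -0.09 (SE 0.09, adjusted p = 0.496), and 2 of 5 replicates had the higher value with tunicamycin.

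CREB3L3 (chr19:4153631-4173054, plus strand) had the largest change of the 10 genes. Its control values were 22.7, 16.5, 19.8, 20.3 and 14.9 CPM, and its tunicamycin values were 6.38, 4.32, 5.84, 6.29 and 3.23 CPM. The highest tunicamycin library was below the lowest control library by a wide margin. The mean of CREB3L3 fell from 18.8 ± 3.11 to 5.21 ± 1.38 CPM, a 3.51-fold lower level or -1.81 on the log2 scale (SE 0.19, adjusted p = 6.89e-07). Of all genes tested, 0.9% had a lower log2 fold change. The values rest on 458 counts over the control libraries and 106 over the tunicamycin libraries. Hepatoma markers fell beside it, with 5 of 8 called lower (TTR, APOA1, APOB, FGB and TF, while ALB, AFP and SERPINA1 did not pass) and a summed level of 14863 to 19133 CPM in control libraries and 11829 to 13327 CPM with tunicamycin. APOB made up the largest part of this sum, with a mean of 7453 CPM in control libraries and 4346 CPM with tunicamycin. The part of the markers in the fall of CREB3L3 was not tested. Fewer cells that express a gene cannot be told apart from less of its RNA per cell in these bulk libraries.

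**Figure D3:**
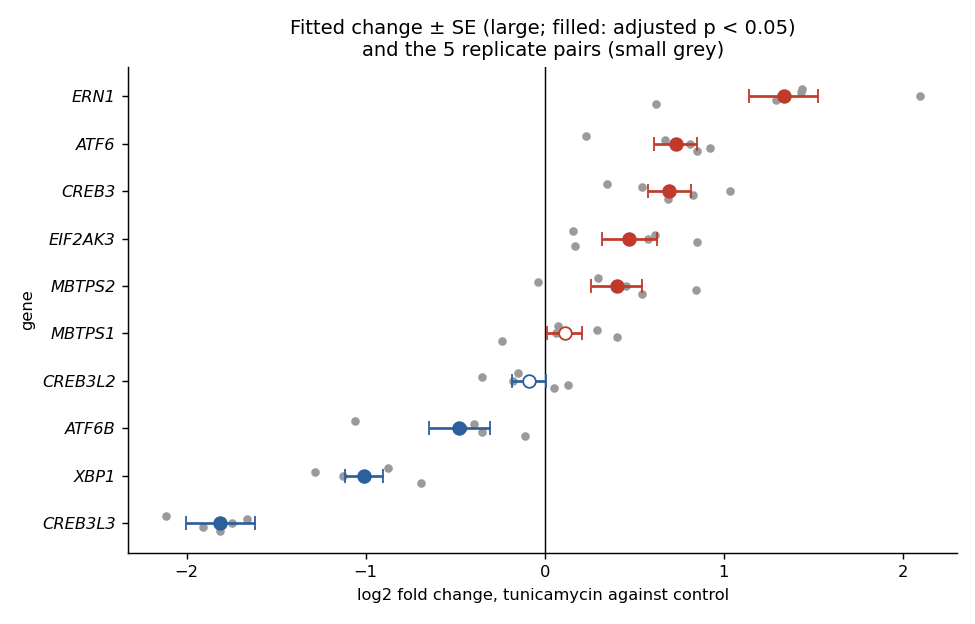
Log2 fold change of the 10 genes with tunicamycin against control (x axis), with bars of 1 SE from edgeR's fit, filled large points for an adjusted p under 0.05 and small grey points for the ratio within each of the 5 replicates. ERN1, at 1.34, and CREB3L3, at -1.81, lie at the ends, and MBTPS1 and CREB3L2 lie near 0.

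The changes altered the order of the genes by level. In control cells XBP1, at 157 ± 20.5 CPM, and CREB3L2, at 128 ± 5.14 CPM, had the highest means with overlapping ranges, followed by MBTPS1 at 92.1 ± 12.03 CPM and ATF6 at 34.6 ± 2.02 CPM, each apart from its neighbours. CREB3, EIF2AK3, CREB3L3, MBTPS2, ATF6B and ERN1 followed, from 27.3 ± 3.64 down to 12.2 ± 3.19 CPM, each with a range that overlapped that of the next. With tunicamycin CREB3L2 (120.0 ± 15.5 CPM), MBTPS1 (99.6 ± 7.82 CPM) and XBP1 (78.5 ± 9.62 CPM) formed an overlapping chain above all others. ATF6, CREB3, EIF2AK3, ERN1 and MBTPS2 formed the next chain, from 56.96 ± 10.2 to 24.1 ± 1.26 CPM. ATF6B, at 9.34 ± 1.17 CPM, and CREB3L3, at 5.21 ± 1.38 CPM, each stood apart below it. ERN1 thus moved from the lowest mean of the 10 to a range that overlapped those of EIF2AK3 and MBTPS2. Its control mean includes replicate 3, at 6.61 CPM against 12.5 to 14.2 CPM in the other controls, and ATF6B had a mean of 13.2 CPM.

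Ratios between related genes within a library, which do not depend on the scaling of libraries, were compared for 5 pairs with exact two-sided permutation tests over the 10 libraries, for which 0.00794 is the smallest p possible. ATF6 exceeded ATF6B by a factor of 2.65 in control cells and 5.97 with tunicamycin, a difference of 1.17 between the mean log2 ratios. ERN1 was at 0.502 times the level of EIF2AK3 in control cells and at 0.937 times with tunicamycin. CREB3L2 exceeded CREB3 by a factor of 4.70 in control cells and 2.72 with tunicamycin. CREB3L3 was at 0.689 times the level of CREB3 in control cells and at 0.119 times with tunicamycin. In each of these 4 pairs no control library overlapped a tunicamycin library, and the exact permutation p was 0.00794 (0.00992 after Benjamini-Hochberg adjustment over the 5 pairs). An exact sign-flip test over the 5 replicate pairs gave 0.0625 for each of the 4, the smallest p it allows, so that with the replicates as blocks none could pass. For CREB3L3 to CREB3 both p-values were fixed in advance, since CREB3L3 fell and CREB3 rose with no overlap between the groups. The ranges of the single genes also fixed both p-values for ATF6 to ATF6B and for CREB3L2 to CREB3. Even the closest combination of their extreme values kept the ratios of the groups apart. For CREB3L3 to CREB3, ATF6 to ATF6B and CREB3L2 to CREB3 the p-values add nothing to the results for the single genes. The ratio of MBTPS1 to MBTPS2 was 5.06 in control cells and 4.11 with tunicamycin, with an adjusted p of 0.0952 in the exact permutation test.

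**Figure D4:**
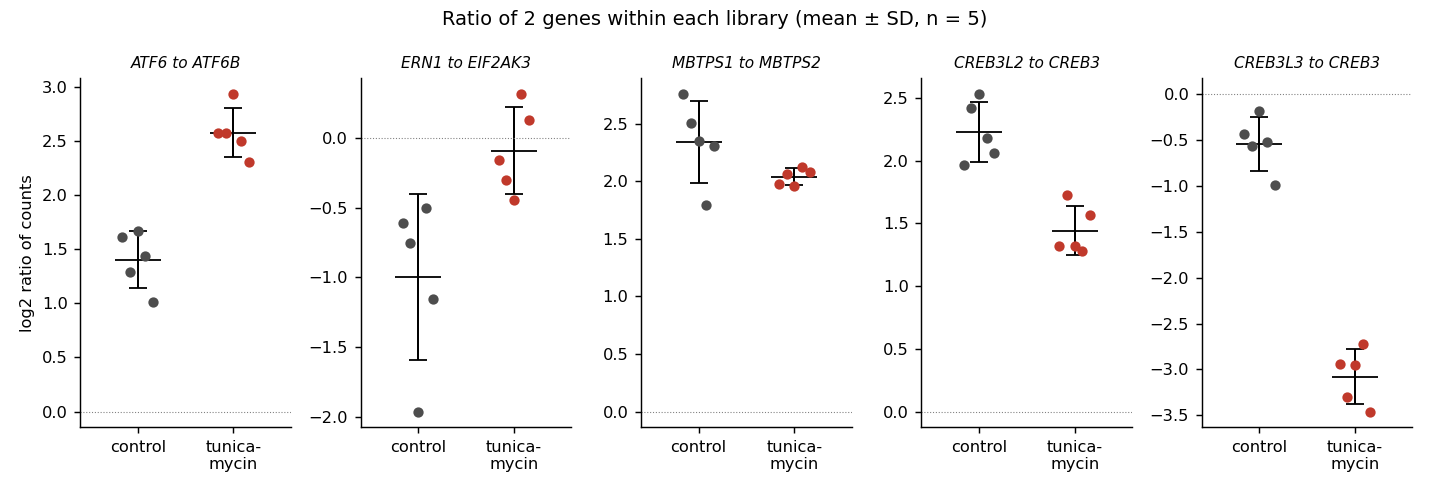
Log2 ratio of 2 related genes within each library (y axis) for 5 pairs, with points for the 5 control and 5 tunicamycin libraries and bars for the mean and SD. The groups lie apart for ATF6 to ATF6B, ERN1 to EIF2AK3, CREB3L2 to CREB3 and CREB3L3 to CREB3, and overlap for MBTPS1 to MBTPS2.

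Of 6 paralogs of these genes 4 were tested, and 1 passed, where 34.2% of all genes tested did. CREB3L1 had 0 counts over the control and 1 over the tunicamycin libraries, and ERN2, the IRE1 paralog of mucous epithelia, was listed at 0 in every library. CREB3L4 was measured at 10.5 CPM in both conditions, with a log2 fold change of -0.02 (adjusted p = 0.934). The other eIF2α kinases are EIF2AK1 (HRI), EIF2AK2 (PKR) and EIF2AK4 (GCN2), which answer to haem deficiency, double-stranded RNA and amino acid shortage. EIF2AK1, at 0.04 (adjusted p = 0.791), and EIF2AK2, at 0.10 (adjusted p = 0.477), did not pass, and EIF2AK4 fell by 0.30 on the log2 scale (adjusted p = 0.035), a call that was lost in 7 of the 10 fits that left out a library.

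Of 19 tested genes for proteins that bind or regulate the sensors, 11 were called higher and 0 lower by edgeR's quasi-likelihood test. Of all genes tested, 17.6% were called higher and 16.6% lower. The median log2 fold change was 0.63 against -0.0033 for all genes tested. HSPA5, whose product BiP holds the sensors inactive, rose from 1934 to 15158 CPM, or by 2.97 on the log2 scale (adjusted p = 1.36e-14). DNAJB9, which encodes the cochaperone ERdj4 that recruits BiP to IRE1α, rose from 3.08 to 42.0 CPM (log2 fold change 3.76, adjusted p = 5.1e-09). SEL1L and SYVN1, the ubiquitin ligase complex that degrades IRE1α among other ER proteins, rose from 101 to 502 CPM and from 30.7 to 127 CPM. HSPA5, DNAJB9, SEL1L, SYVN1 and DNAJC3, all called higher, are also on the target lists of ATF6 or of IRE1α and XBP1 below. WFS1, RTCB, the ligase that joins XBP1 exons, and TMBIM6, an IRE1α inhibitor, did not pass. With DESeq2, TMBIM6 was called higher (log2 fold change 0.18, adjusted p = 0.0442, against 0.0903 with edgeR).

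Genes downstream of each sensor were counted next, from lists that partly share genes. The shares of all genes tested, 17.6% called higher and 16.6% called lower, stand beside each of these counts. Among 12 targets ascribed to ATF6, 11 were called higher, with a median log2 fold change of 2.37. They included MANF (3.20), HSPA5 (2.97), HERPUD1 (2.78) and HSP90B1 (2.72), which encode ER chaperones and factors of ER-associated degradation. Among 12 targets of IRE1α and XBP1, 11 were higher and 0 lower, with a median of 1.88, beside the fall of the total XBP1 count. Next to DNAJB9 and HERPUD1, EDEM1, which takes misfolded glycoproteins to degradation, rose from 7.10 to 35.9 CPM, and SRP19, of the signal recognition particle, rose by 2.10 on the log2 scale. SEC31A, a COPII coat protein, was at 0.01 (adjusted p = 0.951).

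Of 6 tested mRNAs known as substrates of IRE1α's RNase, 5 were called lower, against 16.6% of all genes tested, and 0 higher. The median log2 fold change was -1.098. By edgeR's quasi-likelihood test COL6A1 (-1.55, adjusted p = 0.0969) did not pass, on 26 counts over the control and 7 over the tunicamycin libraries. SCARA3 went from 70 counts over the control libraries to 8 over the tunicamycin libraries, and PMP22 (-1.33), SPARC (-0.86) and HGSNAT (-0.51) also fell. BLOC1S1 (-0.39) was the other gene called. With counts thinned to the smallest library 3 of them were called lower, SPARC (adjusted p = 0.214) and HGSNAT (0.275) no longer passing, and 3 were called without the 2 tunicamycin libraries of lowest depth, BLOC1S1 (0.0589) and HGSNAT (0.0775) no longer passing. The call for HGSNAT was also lost in 1 of the 10 fits that left out a library. Whether these mRNAs were cleaved was not measured.

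Of 11 tested genes of the PERK and ATF4 branch, 6 were higher, against 17.6% of all genes tested, and 0 lower, with a median of 0.40. DDIT3, which encodes CHOP, rose from 36.3 to 97.2 CPM (log2 fold change 1.42, adjusted p = 2.1e-08), and PPP1R15A (GADD34, the phosphatase subunit that acts on eIF2α) rose from 13.3 to 37.9 CPM. ASNS rose by 1.23 and TRIB3 by 0.80 on the log2 scale. The mRNA of ATF4, a factor whose synthesis is controlled at translation, was at -0.03 (adjusted p = 0.824).

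Of 5 tested liver targets of CREB3L3, 4 were lower, against 16.6% of all genes tested, and 0 higher, with a median of -0.87. APOA5, an apolipoprotein of triglyceride metabolism, fell from 60.7 to 20.8 CPM (log2 fold change -1.55), and APOA4 (-1.16), CIDEC (-0.87) and FGB (-0.76) fell too. PCK1, of gluconeogenesis, did not pass (0.55, adjusted p = 0.544), on only 10 counts over the control and 12 over the tunicamycin libraries. The other 6 genes of that list were not tested. Of these FGF21, APOC2, APCS and CRP were listed at 0 in all 10 libraries. So were CHAC1 of the PERK and ATF4 list, CES1 of the IRE1α substrates, MAP3K5 of the regulators and INSIG1 of the S1P and S2P route. Whether these zeros reflect expression or the counting was not tested. A fall of 5 of the 8 hepatoma markers stood beside that of these targets, among them TTR (-1.02), APOA1 (-0.91), APOB (-0.78) and TF (-0.38). FGB, also among them, is on both lists. ALB (0.04), SERPINA1 (0.08) and AFP (-0.16) did not pass. The part of the marker fall in the counts of CREB3L3 targets was not tested. Of 7 tested genes of the secretory pathway ascribed to CREB3 or CREB3L2, 5 were higher and 0 lower, with a median of 0.64, among them HERPUD1, ARF4 (1.41), SEC24D (1.101) and COPA (0.64), which serve vesicle traffic between the ER and the Golgi. ARFGAP1 (-0.03) and GOLGA2 (-0.10) did not pass, HERPUD1 is also on the ATF6 and XBP1 lists, and SEC24D is also on the XBP1 list. Of 6 other substrates, escorts or regulators of the S1P and S2P route, SREBF2 (-0.65), the SREBP of cholesterol synthesis, and GNPTAB (-0.80), which encodes an S1P-cleaved phosphotransferase, fell, and 0 rose.

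**Figure D5:**
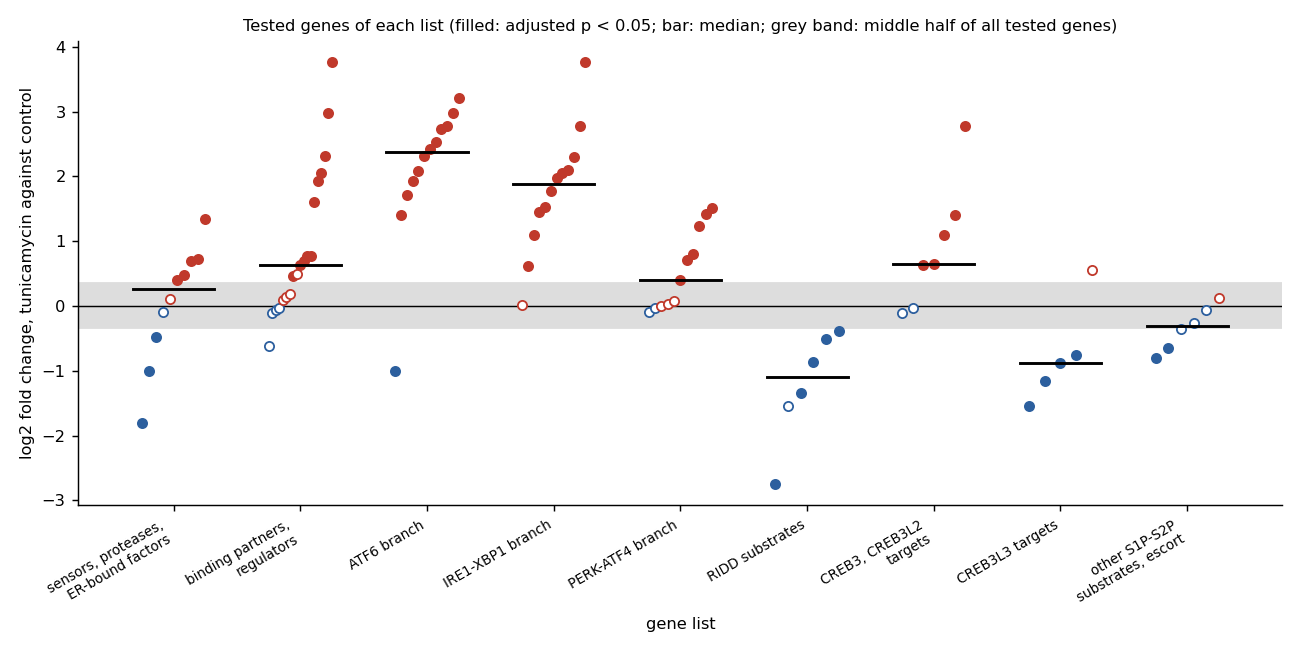
Log2 fold change with tunicamycin against control (y axis) of each tested gene, in one column per list, with filled points for genes with an adjusted p under 0.05, a bar at the list's median and a grey band from the lower to the upper quartile of all genes tested (-0.34 to 0.35). The medians of the ATF6 and the IRE1α and XBP1 targets lie at 2.37 and 1.88, and those of the IRE1α RNase substrates and the CREB3L3 targets lie at -1.098 and -0.87.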

How the data were processed

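3′ RNA sequencing (QuantSeq) was done on 5 control and 5 tunicamycin libraries of HepG2 cells. The authors used the nf-core pipeline with default settings, hg19 and Ensembl gene models and deposited raw counts per gene, without normalization. The aligner, the counting program and the strand setting are not named in the sources used here.

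From the deposited counts, genes were filtered with filterByExpr (minimum count 2, minimum total 10), the 12733 genes that passed were scaled by TMM, and the quasi-likelihood test of edgeR (version 4.0.16 in R 4.3.3) was fitted with condition alone and with Benjamini-Hochberg adjustment at 0.05. Log2 ratios within replicates or libraries used a pseudocount of 0.5. Ratios between genes were tested with exact permutation tests (SciPy 1.17.1, Python 3.11.15). Depth, 2234682 to 5029864 counts per library, limits genes of few counts, such as CREB3L3 and ATF6B.

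The series text places the replicates on separate days, so replicate numbers pair the libraries. The deviations from the group means of paired libraries correlated at 0.363, 0.0128, 0.064, 0.166 and 0.15 over 9704 genes. The control libraries of replicates 1 and 4 correlated best with the tunicamycin library of their own number. Those of replicates 2, 3 and 5 correlated best with another. The alternatives were DESeq2 1.42.0, its size factors, no scaling, other filters, the replicate block, a pseudocount of 1, thinned counts and leaving out each library.

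The genes described and the lists were chosen with earlier results of these data known, so list counts are descriptions without a test. Named were the 10 genes, their paralogs, HSPA5, DNAJB9 and DDIT3, and of each list up to 4 genes with the largest rise and up to 4 with the largest fall among those called. Other list genes are named as not passing, as listed at 0, as shared between lists or as markers. A further item is not reported here. Positions come from GENCODE on GRCh38 and promoters from RefSeq on GRCh38.p14, in which all 10 genes were found, and no coordinate of hg19 is given.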

Additional observations from a re-analysis of the deposited data

Results flagged for a closer look

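In a group of 5 libraries, the highest or lowest was compared with its nearest neighbour, and 3 of 52 groups held a library whose gap took more than 0.71 of the group's range (Dixon's limit). Chance gives about 1 in 20, or 2.6 of 52. ATF6 was at 39.7 CPM in tunicamycin replicate 5, the library of lowest depth, against 57.9 to 65.1 CPM in the other tunicamycin libraries. ERN1 was at 6.61 CPM in control replicate 3, against 12.5 to 14.2 CPM in the other control libraries. Without that library the log2 fold change of ERN1 was 1.18, and without tunicamycin replicate 5 that of ATF6 was 0.82, and both calls held. The summed level of the hepatoma markers was 13327 CPM in tunicamycin replicate 2, against 11829 to 12183 CPM in the other tunicamycin libraries.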

How the results depend on the processing

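ERN1, ATF6, XBP1, CREB3 and CREB3L3 kept their direction and their call in every alternative. With library size only, EIF2AK3 (0.39, adjusted p = 0.0549) and MBTPS2 (0.32, 0.102) were not called, 3 of the 10 genes were higher, and 1 regulator and 4 genes of the S1P and S2P route (SREBF2, GNPTAB, SCAP and C12orf49) were lower. With counts thinned to the smallest library, EIF2AK3 (0.38, 0.184), ATF6B (-0.23, 0.590) and MBTPS2 (0.39, 0.159) were not called, 3 genes were higher, and 4 genes of the S1P and S2P route, 3 IRE1α substrates and 0 paralogs were lower. With no filter, ATF6B (-0.48, 0.0579) was not called and 0 paralogs were lower. With the replicate block, ATF6B (-0.45, 0.05003) was not called and 1 regulator was lower, and with DESeq2 and the block neither ATF6B (-0.46, 0.135) nor MBTPS2 (0.42, 0.0685) was called, with 0 paralogs lower. For the paired ratios an exact sign-flip test cannot go below 0.0625, the p of the changes of 1.17 (ATF6 to ATF6B), 0.90 (ERN1 to EIF2AK3), -0.79 (CREB3L2 to CREB3) and -2.54 (CREB3L3 to CREB3). The block changed no other call among the 10 genes.

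Without the 2 tunicamycin libraries of lowest depth, a setting chosen after seeing the data, ATF6B (-0.45, 0.107) and MBTPS2 (0.42, 0.0663) were not called, CREB3L2 reversed to 0.0070 (0.969), and 3 IRE1α substrates and 0 paralogs were lower. EIF2AK1 reversed to -0.0503 with library size only, -0.0216 when thinned and -0.0536 without those libraries. Over the 10 fits that each left out a library, log2 fold changes ranged from -0.55 to -0.38 for ATF6B, 0.40 to 0.58 for EIF2AK3, 0.33 to 0.52 for MBTPS2, -0.0783 to 0.0614 for CREB3L4 and -0.0583 to 0.0904 for EIF2AK1, and the change in the ratio of MBTPS1 to MBTPS2 from -0.44 to -0.20. Of the 10 genes, 3 to 5 were then called higher, and 0 to 1 paralogs and 0 to 1 regulators lower. The cause of these differences was not tested.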
